A study of Arabidopsis thaliana with 6 samples.

Results

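The small RNA (sRNA) loci described here are the 286 loci of clusters 6, 7 and 9 among the 1633 loci of the deposited ndx1-4 table. They were chosen by the cluster number that each locus carries in the table, without use of its counts, fold change or p-value, and they numbered 130 loci in cluster 6, 85 in cluster 7 and 71 in cluster 9. What the cluster numbers stand for is not stated in the sources used here, so they serve only as names. sRNAs were sequenced from inflorescences of 5-week-old Arabidopsis thaliana plants, with 3 libraries of ndx1-4 and 3 of wild type. ndx1-4 is a T-DNA insertion allele of NODULIN HOMEOBOX (NDX) in the Col-0 accession, and the wild type was Col-0 itself. The mutant was represented by this single allele, and each replicate was a pool of equal amounts of RNA from 5 flowering samples, so differences between individual plants are not seen. The tissue was a whole inflorescence, in which fewer cells that make an sRNA and less sRNA per cell cannot be told apart.

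Plants cut double-stranded RNA into sRNAs of about the length of a microRNA. Many of these come from transposons and other repeats near the centromeres, where they guide DNA methylation and keep chromatin closed, and others come from inverted repeats, whose transcript folds back on itself, or are fragments of tRNA. NDX belongs to the homeobox family, whose members bind DNA, and it is known for roles in heterochromatin and sRNA production. The comparison of ndx1-4 with Col-0 asked which sRNA loci gain or lose reads without intact NDX. In cluster 6, 32 loci had the same counts in all libraries as another listed locus, so loci that share a sequence can also share reads and are not independent of each other.

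The listed loci together held 2162920 to 2935774 counts in the ndx1-4 libraries and 2276389 to 2553018 in the Col-0 libraries. Such totals cover the listed loci alone, so library depth is unknown here. The list had been selected by the authors for a difference between these same libraries, so it holds no well-counted locus without a difference, and the number of loci called below describes the list rather than the genome. Normalised counts are counts after division by a size factor for each library, a fold change is ndx1-4 over Col-0, and coordinates are those of the table (TAIR10, counted from 1).

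The sequences that the results turn on are given first, as the reference sequence of the RefSeq assembly TAIR10.1. The locus with the highest fold change of cluster 6 and that of cluster 7 lie on different chromosomes and share a stretch of 256 bases at 98.0% identity. The 5 bases that differ are in capitals.
Cluster 6, pseudogene AT2G07160, chr2:2974403-2974658 (plus strand): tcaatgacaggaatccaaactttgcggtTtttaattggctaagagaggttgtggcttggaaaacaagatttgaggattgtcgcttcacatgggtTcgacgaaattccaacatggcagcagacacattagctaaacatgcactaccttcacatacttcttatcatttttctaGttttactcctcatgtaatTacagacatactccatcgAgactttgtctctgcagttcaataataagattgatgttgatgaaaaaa
Cluster 7, beside AT5G39560, chr5:15841022-15841277 (minus strand): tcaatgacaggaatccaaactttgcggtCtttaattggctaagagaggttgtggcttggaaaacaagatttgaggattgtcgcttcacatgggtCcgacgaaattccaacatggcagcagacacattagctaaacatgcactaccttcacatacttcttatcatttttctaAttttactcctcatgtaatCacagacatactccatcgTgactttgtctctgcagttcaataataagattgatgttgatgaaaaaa

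A family of 9 loci of clusters 6, 7 and 9 on chromosomes 2, 3, 4 and 5, each higher in ndx1-4, is shown by a window of 120 bases that all 9 hold without gaps. Capitals mark bases that differ from the chromosome 4 locus.
Cluster 7, AT4G03035, chr4:11109704-11109823 (plus strand): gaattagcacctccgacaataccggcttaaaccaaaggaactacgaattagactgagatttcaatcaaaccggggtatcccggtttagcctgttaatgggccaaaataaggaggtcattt
Cluster 9, AT2G01035, chr2:50041-50160 (minus strand): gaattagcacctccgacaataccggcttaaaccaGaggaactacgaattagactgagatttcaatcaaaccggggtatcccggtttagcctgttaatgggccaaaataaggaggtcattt
Cluster 7, beside AT3G60957, chr3:22533613-22533732 (minus strand): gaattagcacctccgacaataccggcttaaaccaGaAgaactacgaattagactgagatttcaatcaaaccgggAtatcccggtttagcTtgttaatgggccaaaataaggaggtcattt
Cluster 7, AT5G28345, chr5:10317570-10317689 (minus strand): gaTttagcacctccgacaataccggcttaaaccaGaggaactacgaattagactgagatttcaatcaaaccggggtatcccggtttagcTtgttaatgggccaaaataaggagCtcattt
Cluster 6, near AT5G28463, chr5:10378701-10378820 (plus strand): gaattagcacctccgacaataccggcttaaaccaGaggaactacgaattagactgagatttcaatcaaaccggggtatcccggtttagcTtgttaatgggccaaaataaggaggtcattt

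The tRNA gene loci of clusters 6 and 7 are shown by a locus at the start of a tRNA-Ser gene, by a locus around a tRNA-Tyr gene and by the shortest locus of cluster 6, with the bases of the tRNA gene in capitals. The 24 tRNA bases of the shortest locus are the reverse complement of the first 24 tRNA bases of the tRNA-Ser locus.
Cluster 6, AT1G57030 (tRNA-Ser), chr1:21283858-21284018 (plus strand): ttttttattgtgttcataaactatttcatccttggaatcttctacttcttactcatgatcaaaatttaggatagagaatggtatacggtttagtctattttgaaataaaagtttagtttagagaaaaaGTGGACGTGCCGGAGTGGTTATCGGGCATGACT
Cluster 6, AT1G57130 (tRNA-Tyr), chr1:21288907-21289012 (plus strand): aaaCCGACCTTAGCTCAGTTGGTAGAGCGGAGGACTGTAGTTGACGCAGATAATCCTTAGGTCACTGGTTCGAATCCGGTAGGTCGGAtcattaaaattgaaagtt
Cluster 6, AT1G59570 (tRNA-Ser), chr1:21883901-21883929 (plus strand): CGATAACCACTCCGGCACGTCCACttttt

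The shortest locus of cluster 7 lies in the pericentromeric region of chromosome 1 and had 38 near-identical copies in the genome. It stands for the largest family of the 3 clusters, and a copy of it inside a longer locus of cluster 6 and inside one of cluster 9 is shown beside it. Capitals mark bases of the copies that differ from the cluster 7 locus.
Cluster 7, shortest locus, chr1:15012359-15012429 (plus strand): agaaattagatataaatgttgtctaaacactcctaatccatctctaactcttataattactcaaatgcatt
Cluster 6, within chr1:15013427-15015059, chr1:15014422-15014492 (plus strand): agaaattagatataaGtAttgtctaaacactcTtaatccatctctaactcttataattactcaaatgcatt
Cluster 9, within chr1:14671538-14673797, chr1:14671720-14671790 (minus strand): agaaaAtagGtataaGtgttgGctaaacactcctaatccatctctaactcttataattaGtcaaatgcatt

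The other loci of 300 bp or less that are named below are given whole. Capitals mark bases inside a near-identical copy elsewhere in the genome, meaning at least 50 bp at 95% identity or more. The first 2 have no such copy, and the whole of the third lies inside such copies and is left in lower case.
Cluster 6, AT1G28135, chr1:9829376-9829518 (plus strand): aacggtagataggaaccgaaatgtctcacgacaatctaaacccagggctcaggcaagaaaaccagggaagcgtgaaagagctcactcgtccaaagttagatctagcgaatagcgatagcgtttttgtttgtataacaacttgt
Cluster 6, near BKI1, chr5:17145865-17146090 (plus strand): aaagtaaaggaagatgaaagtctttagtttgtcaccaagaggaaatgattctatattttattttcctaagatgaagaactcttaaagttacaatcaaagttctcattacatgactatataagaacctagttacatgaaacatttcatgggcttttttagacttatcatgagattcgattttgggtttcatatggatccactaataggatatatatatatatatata
Cluster 7, near AT1G08805, chr1:550346-550526 (plus strand): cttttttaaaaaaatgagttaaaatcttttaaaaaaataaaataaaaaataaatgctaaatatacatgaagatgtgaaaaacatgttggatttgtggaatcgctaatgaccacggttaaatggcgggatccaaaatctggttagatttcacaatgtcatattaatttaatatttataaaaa
Cluster 9, shortest locus, chr5:11796861-11797109 (plus strand): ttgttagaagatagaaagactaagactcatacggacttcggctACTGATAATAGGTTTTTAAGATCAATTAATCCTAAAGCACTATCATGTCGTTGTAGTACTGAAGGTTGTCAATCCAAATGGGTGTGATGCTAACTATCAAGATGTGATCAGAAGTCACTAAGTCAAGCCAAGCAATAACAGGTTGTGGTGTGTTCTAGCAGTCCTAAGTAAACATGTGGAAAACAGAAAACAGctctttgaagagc

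All 286 loci passed the filter on low counts and were tested in the fit over the whole list (quasi-likelihood test of edgeR, adjusted by Benjamini-Hochberg over 1626 loci), and all 286 were called at an adjusted p under 0.05, as was every other tested locus of the list. The direction differed between the clusters. Cluster 6 had 18 higher loci and 112 lower ones in ndx1-4, or 13.8% and 86.2%, against 39.2% higher and 60.8% lower over the list. Cluster 7 had 52 higher and 33 lower (61.2% and 38.8%), and cluster 9 had 6 higher and 65 lower (8.45% and 91.5%). The list is a mixture in this respect. Clusters 4 and 5 had larger shares of higher loci than cluster 7, 84.2% and 78.9%, while cluster 3 had 20.0% and cluster 8 had 0 of 548. Most changes were small: 7 loci of cluster 6, 18 of cluster 7 and 2 of cluster 9 were higher by over 1.5-fold (22.3% of the list), and 26, 5 and 6 loci of clusters 6, 7 and 9 were lower by over 1.5-fold (11.6% of the list). The 3 ndx1-4 libraries lay all above or all below the 3 Col-0 libraries at 127 loci of cluster 6, 81 of cluster 7 and 70 of cluster 9, beside 98% of the list.

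The median log2 fold change was -0.43 in cluster 6 (quartiles -0.54 and -0.36), 0.28 in cluster 7 (quartiles -0.38 and 0.49) and -0.34 in cluster 9 (quartiles -0.38 and -0.32), and it was -0.34 over the list. Clusters 4 and 5 had higher medians than cluster 7, 0.92 and 0.52, and clusters 3 and 8 had -0.55 and -0.46. Cluster 9 had the narrowest interquartile range of the 3, 0.066, against 0.18 in cluster 6 and 0.87 in cluster 7. An empty band around 0 lay between higher and lower loci in each cluster. The band itself follows from the selection of the list, and its place around 0 from the scale, which was centred in it. How far the medians of each direction lie from 0 therefore depends on that scale. The lower loci had medians of -0.46, -0.40 and -0.35 in clusters 6, 7 and 9, and the higher loci had medians of 0.43, 0.40 and 0.41.

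Levels were then compared over libraries, since loci are not replicates. In each library the median over the loci of a cluster was taken of the log2 level relative to the Col-0 mean of the same locus. Cluster 7 was at 0.28, 0.29 and 0.26 in ndx1-4 replicates 1 to 3, against 0.024, -0.028 and -0.0055 in Col-0 replicates 1 to 3. Cluster 6 was at -0.50, -0.40 and -0.35 in the ndx1-4 libraries, against 0.070, -0.015 and -0.024 in the Col-0 libraries. Cluster 9 was at -0.33, -0.37 and -0.35 in ndx1-4, against 0.028, -0.078 and 0.022 in Col-0. No cluster's ndx1-4 and Col-0 libraries overlapped, and each exact two-sided permutation test gave p = 0.1, the smallest that 3 libraries against 3 allow. All other listed loci were separated in the same way (exact permutation p = 0.1). Loci were listed for a difference between these same libraries, so separation was favoured beforehand and this test cannot decide whether a cluster differs.

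**Figure D1:**
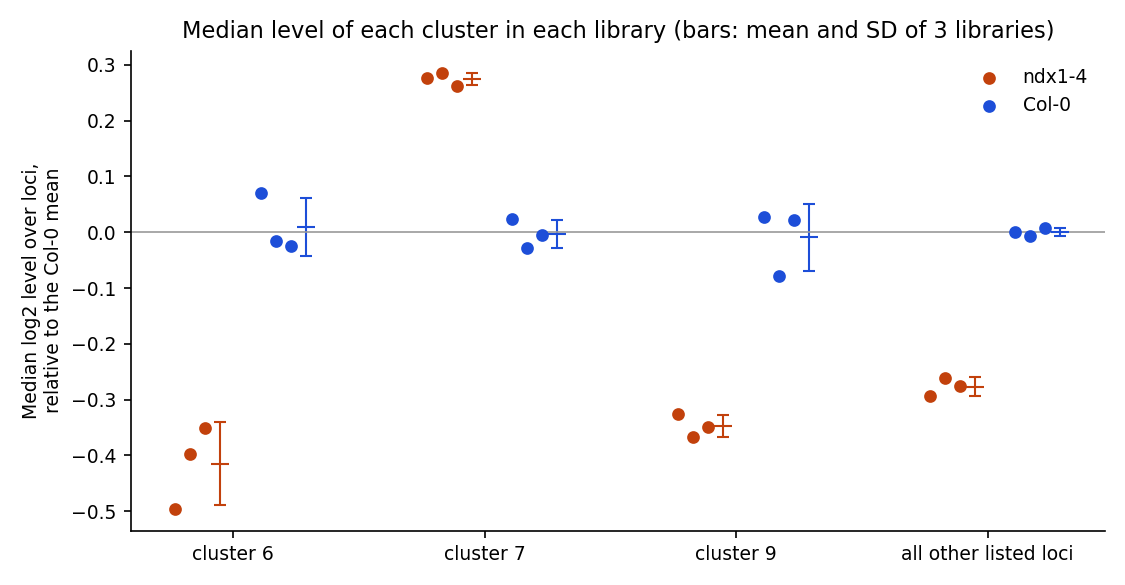
Median log2 level over the loci of each cluster, relative to the Col-0 mean of each locus (y axis, log2), in each ndx1-4 and Col-0 library, with the mean and SD of 3 libraries beside the points. The ndx1-4 libraries sit above the Col-0 libraries in cluster 7 (0.26 to 0.29) and below them in clusters 6 and 9 and in all other listed loci.

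The difference between 2 clusters within a library does not depend on how the libraries are scaled. Cluster 7 minus cluster 6 was 0.70 higher in ndx1-4 than in Col-0 libraries, and cluster 7 minus cluster 9 was 0.62 higher (exact permutation p = 0.1 for each, 0.15 after adjustment over the 6 comparisons made). Both differences reach across the empty band, so they largely reflect the share of higher loci in cluster 7. Within a direction the clusters were close. Medians in clusters 6, 7 and 9 were 0.43, 0.40 and 0.41 for higher loci and -0.46, -0.40 and -0.35 for lower loci. Cluster 9 minus cluster 6 was 0.087 higher, with overlapping libraries (exact permutation p = 0.3). Set against all other listed loci, cluster 7 was 0.55 higher (exact permutation p = 0.1), cluster 6 was 0.15 lower (p = 0.1) and cluster 9 was 0.061 lower with overlapping libraries (exact permutation p = 0.2). These last differences depend on which loci stand for the list. The other loci mix clusters 4 and 5, whose medians lay above that of cluster 7, with clusters 3 and 8, whose medians lay below it. With 1 locus per near-identical family, the difference in median fitted log2 fold change between cluster 7 and the other loci was -0.16 where it was 0.60 with every locus counted. A single repeat family holds 489 of the listed loci, 32 of them in clusters 6 and 9, and counts once in that setting. Clusters 6 and 9 minus the other loci were then -0.89 and -0.80, where they were -0.11 and -0.020 with every locus counted. Among loci of 500 bp or more the differences from the other loci were 0.055, 0.13 and 0.094 for clusters 6, 7 and 9, so that those of clusters 6 and 9 changed sign. Leaving out a library moved the smaller differences of fitted medians by over 1.5 times: cluster 9 minus the other loci was -0.020 with all libraries, -0.088, -0.027 and -0.036 without ndx1-4 replicates 1, 2 and 3, and -0.0045, -0.057 and -0.057 without Col-0 replicates 1, 2 and 3. Cluster 9 minus cluster 6 was 0.090 with all libraries, 0.047 without ndx1-4 replicate 1 and 0.040 without Col-0 replicate 2.

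How many loci count as lower rests on the scale between the genotypes, which the selected list does not fix by itself. Column totals, median-of-ratios and TMM over the list, and the lower edge of the empty band, kept 5 to 31 of the 112 lower calls of cluster 6, 3 to 6 of the 33 of cluster 7 and 5 to 14 of the 65 of cluster 9. The upper edge of the band left 7, 25 and 2 loci called higher in clusters 6, 7 and 9. These scales moved the median log2 fold change of the list by 0.23 to 0.36 upwards, or by 0.23 downwards at the upper edge, so all directions below are relative to the scale used. Of the calls over the list, 39.2% were higher on the main scale and 29.5% to 84.8% on the others.

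The share of listed counts in a library needs no scale. Cluster 7 held 4.56%, 5.00% and 4.83% of the listed counts in ndx1-4 replicates 1 to 3, against 4.05%, 3.93% and 3.78% in Col-0, with no overlap (4.80% ± 0.23 in ndx1-4 against 3.92% ± 0.14 in Col-0, SD, n = 3 each, exact permutation p = 0.1). On the main scale its summed normalised counts were 105112 ± 6538 in ndx1-4 and 109977 ± 4567 in Col-0, with overlapping libraries (exact permutation p = 0.5). Cluster 6 held 4.86% ± 0.43 in ndx1-4 and 4.95% ± 0.14 in Col-0 (exact permutation p = 0.8), and without ndx1-4 replicate 1, whose share of 4.36% was the lowest of the 6, the difference in percentage points was 0.15, where it was -0.097 with all libraries, and it was -0.22 without ndx1-4 replicate 2 or 3 and -0.016 without Col-0 replicate 1. Cluster 9 held 8.94% ± 0.42 in ndx1-4 and 9.54% ± 0.41 in Col-0 (exact permutation p = 0.3, a difference of -0.36 points without ndx1-4 replicate 3 against -0.60 with all libraries), and 1 locus made up 46.2% of its counts in ndx1-4 and 50.2% in Col-0. Without that locus, cluster 9 held 5.02% ± 0.26 in ndx1-4 and 4.99% ± 0.065 in Col-0 (exact permutation p = 0.9).

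The clusters also differed in length. Cluster 9 loci were the longest, 249 to 8134 bp with a median of 2298 bp, and 50 of its 71 loci were of 2000 bp or more, beside 16 of the 1347 listed loci outside the 3 clusters. Cluster 6 spanned 29 to 1969 bp (median 452.5 bp) and cluster 7 spanned 71 to 1926 bp (median 579 bp), against a median of 343 bp outside the 3 clusters. Those other loci had medians of 117.5, 145.5 and 333 bp in clusters 3, 4 and 5, and of 506 bp in cluster 8, which is above cluster 6. The 71 loci of cluster 9 covered 192821 bp, more than clusters 6 (78108 bp) and 7 (55229 bp) together. Per length its counts were the lowest of the 3, with a median of 565 normalised counts per kb, against 892 in cluster 6, 1004 in cluster 7 and 1320 outside the 3 clusters. Low counts per kb were not particular to these clusters. Outside them the medians were 512 in cluster 4, 684 in cluster 5, 2445 in cluster 3 and 3155 in cluster 8.

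In cluster 7, as over the list, the share of higher loci was smaller in the longer length classes. Of the 12 cluster 7 loci under 250 bp, 11 were higher in ndx1-4, as were 17 of 22 loci of 250 to under 500 bp, 20 of 39 loci of 500 to under 1000 bp and 4 of 12 loci of 1000 to under 2000 bp. Over the list, 287 of 544, 225 of 473, 93 of 382 and 29 of 168 loci of these classes were higher. Among loci of 500 bp or more, 24 of cluster 7 were higher and 27 lower, and the fitted medians of clusters 7 and 6 then differed by 0.080, against 0.71 over all loci. In cluster 6 the median log2 fold change was -0.56 in its 42 loci under 250 bp and -0.34 in its 24 loci of 1000 to under 2000 bp, with a Spearman correlation of 0.44 between length and log2 fold change over its 130 loci. That correlation was -0.25 in cluster 7 and 0.034 in cluster 9, against -0.22 in the loci outside the 3 clusters. The loci in each correlation share libraries and, in families, reads, and no test was made.

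**Figure D2:**
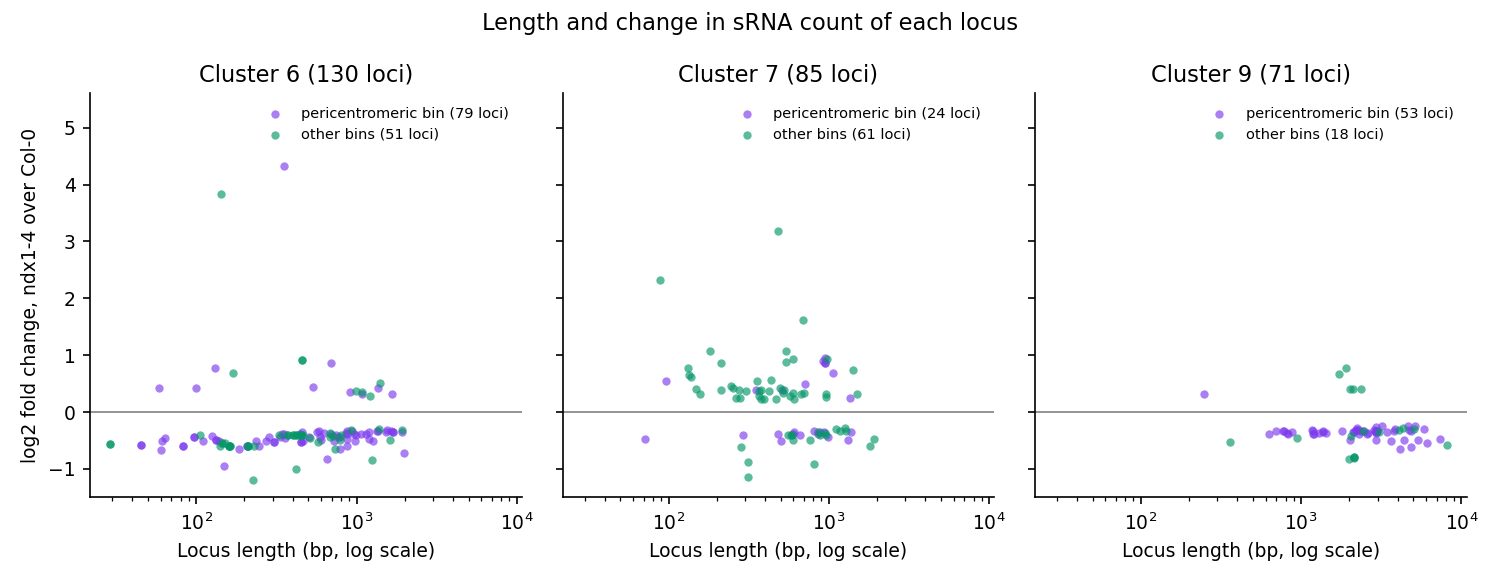
Length of each locus (x axis, bp, log scale) against its log2 fold change, ndx1-4 over Col-0 (y axis), in clusters 6, 7 and 9, coloured by whether the locus lies in a pericentromeric bin. The band around 0 is empty in all 3 clusters, cluster 9 lies almost wholly below it, and 11 of the 12 cluster 7 loci under 250 bp lie above it.

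The clusters also differed from each other in position and sequence. Pericentromeric bins (500000 bp each, with gene coverage under 0.5 times the median bin) held 53 of the 71 loci of cluster 9 (74.6%) and 79 of the 130 of cluster 6 (60.8%), but 24 of the 85 of cluster 7 (28.2%), against 41.9% of the loci outside the 3 clusters. A near-identical copy elsewhere in the genome was found for 83.1% of cluster 9, 70.0% of cluster 6 and 69.4% of cluster 7, against 47.2% outside them. Cluster 8 of the list was above all 3 in both, with 88.9% in pericentromeric bins and 92.3% with a copy. The median distance to the nearest listed locus was 12019 bp in cluster 7, 371 bp in cluster 6 and 109 bp in cluster 9. Outside them it was 4369 bp in all, and from 0 bp in cluster 8 to 35782 bp in cluster 5. Where a locus overlapped no gene, the nearest gene was at a median of 601 bp in cluster 7, 2615 bp in cluster 6 and 4806 bp in cluster 9. For such loci outside the 3 clusters the median was 1323.5 bp. It was 324.5 bp in cluster 3 (6 such loci), 433 bp in cluster 4, 423 bp in cluster 5 and 6062.5 bp in cluster 8. GC content had medians of 33.4%, 32.7% and 34.1% in clusters 6, 7 and 9 and 35.6% outside.

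**Figure D3:**
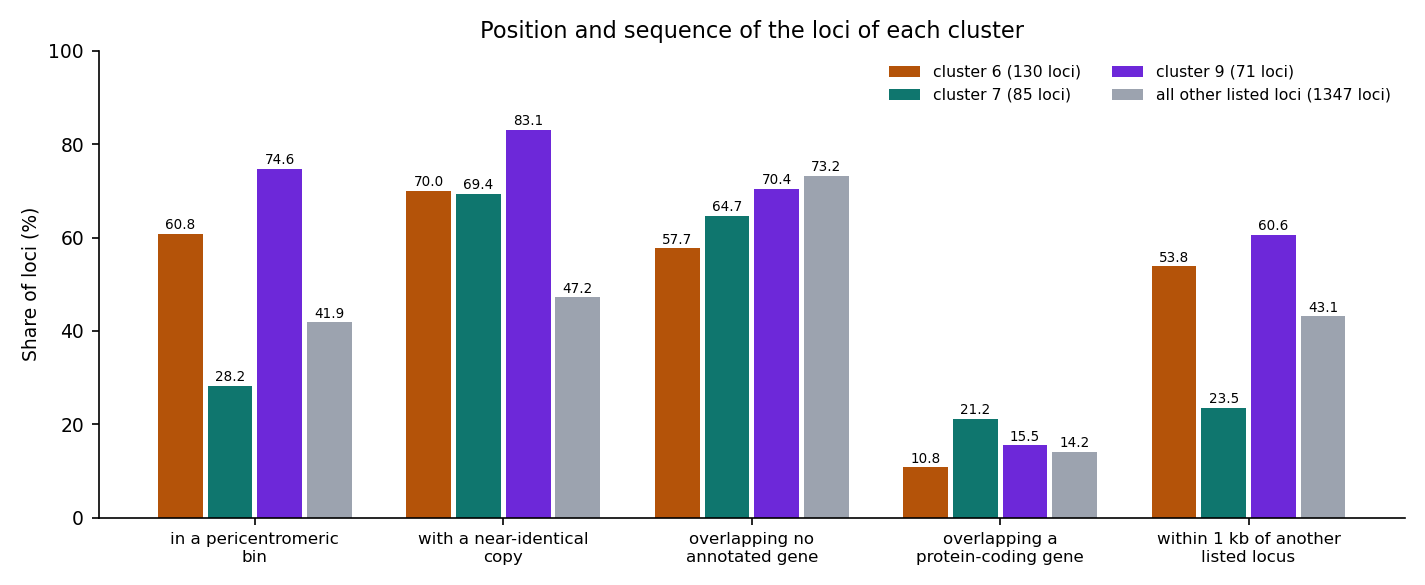
Share of the loci of each cluster, and of all other listed loci, that lie in a pericentromeric bin, have a near-identical copy, overlap no annotated gene, overlap a protein-coding gene, or lie within 1 kb of another listed locus (y axis, percent of loci). Of the 4 groups drawn, cluster 9 has the highest share in pericentromeric bins (74.6%) and cluster 7 the lowest (28.2%).

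Direction by position was as follows. Outside the pericentromeric bins 42 loci of cluster 7 were higher and 19 lower, while inside them 10 were higher and 14 lower. In cluster 6, 8 were higher and 43 lower outside the bins and 10 were higher and 69 lower inside them. In cluster 9, 5 of the 18 loci outside the bins were higher, against 1 of the 53 inside them. Over the loci outside the 3 clusters, 510 were higher and 267 lower outside the bins, and 52 higher and 511 lower inside them. Chromosome 1 held 66 loci of cluster 6, 32 of cluster 7 and 30 of cluster 9, more than any other chromosome, and 64 of the 66 in cluster 6 were lower, 26 of them in a run of tRNA genes that share reads. Over the list 228 of the 392 loci of chromosome 1 were lower, and outside the 3 clusters 117 of 264.

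Lower loci of the clusters lay together. Runs of at least 4 loci of the 3 clusters with no gap over 20 kb numbered 12, they held 116 of the 286 loci (40.6%), and each of these 116 loci was lower in ndx1-4. Many of these loci had a near-identical copy, among them 25 of the 28 loci of 1 run and all 29 of another. They can share reads, so their directions are not independent. Of all 286 loci, 210 (73.4%) were lower, as were 60.8% of the list. Such grouping is not particular to these clusters. All 548 loci of cluster 8 were lower, and 92.0% of them lay within 1 kb of another listed locus. The run with the largest span lay at chr3:13687498-13789582 and held 8 loci, 5 of them of cluster 9, with log2 fold changes of -0.51 to -0.41. A run of 28 loci at chr1:14657449-14750935, near the centromere, held 12 loci of cluster 6, 4 of cluster 7 and 12 of cluster 9 with log2 fold changes of -0.44 to -0.32. A further 15 loci lay at chr1:14927069-14968897, with log2 fold changes of -0.43 to -0.31. On chromosome 5, the 4 cluster 6 loci at chr5:12807076-12824478 had the same counts in every library as the 4 at chr5:12849045-12867197.

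The run with the most loci lay on tRNA genes. At chr1:21270121-21308899, outside the pericentromeric bins, 26 loci of cluster 6 and 3 of cluster 7 each overlapped tRNA genes, in an array of genes for tRNA-Ser and tRNA-Tyr, the tRNAs that carry serine and tyrosine to the ribosome. With 2 loci of 29 bp at tRNA-Ser genes elsewhere, 31 loci of clusters 6 and 7 overlapped a tRNA gene. All 31 were lower in ndx1-4, as were all 85 tRNA gene loci outside the 3 clusters, with log2 fold changes of -0.60 to -0.41 in the 31. Their levels fell into a few steps. The 16 loci that hold all 85 bp of a tRNA-Tyr gene had mean normalised counts of 4054 to 4114, and the 15 others had 600 to 1125. All 15 hold the 24 tRNA bases of the shortest locus printed above, and none of the 16 does. Among the 15, the 5 that hold just these 24 bases of the gene had 600 to 744 normalised counts, the 9 that hold 32 to 36 bases had 1118 to 1121 and the locus that holds all 82 bases had 1125.

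The tRNA-Tyr locus of 106 bp had 2760, 3578 and 4117 normalised counts in ndx1-4 replicates 1 to 3, against 4879, 4455 and 4547 in Col-0. The tRNA-Ser locus printed above had 707, 887 and 1077 in ndx1-4, against 1490, 1331 and 1219 in Col-0. In both, ndx1-4 replicate 1 was the lowest library and ndx1-4 replicate 3 came closest to Col-0, without overlap. The log2 fold change was -0.41 (SE 0.13, edgeR adjusted p = 0.0146) at the tRNA-Tyr locus and -0.60 (SE 0.15, edgeR adjusted p = 0.00454) at the tRNA-Ser locus. The 2 most abundant loci of cluster 6, of 463 and 451 bp, belong to this run, with means of 3510 ± 683 in ndx1-4 and 4657 ± 226 in Col-0 for the longer (SD, n = 3 each). Without Col-0 replicate 1 their edgeR adjusted p was 0.0517 and 0.0513, and the call was lost. On the scale of column totals their log2 fold change was -0.056 each (edgeR adjusted p = 0.706). The shortest cluster 6 locus, of 29 bp at AT1G59570, had 373, 466 and 624 normalised counts in ndx1-4, against 735, 717 and 684 in Col-0, again without overlap (log2 fold change -0.55, SE 0.16, edgeR adjusted p = 0.0102). Without the run, a setting added after the data were seen, cluster 6 had 18 higher and 86 lower loci and a median of -0.43.

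**Figure D4:**
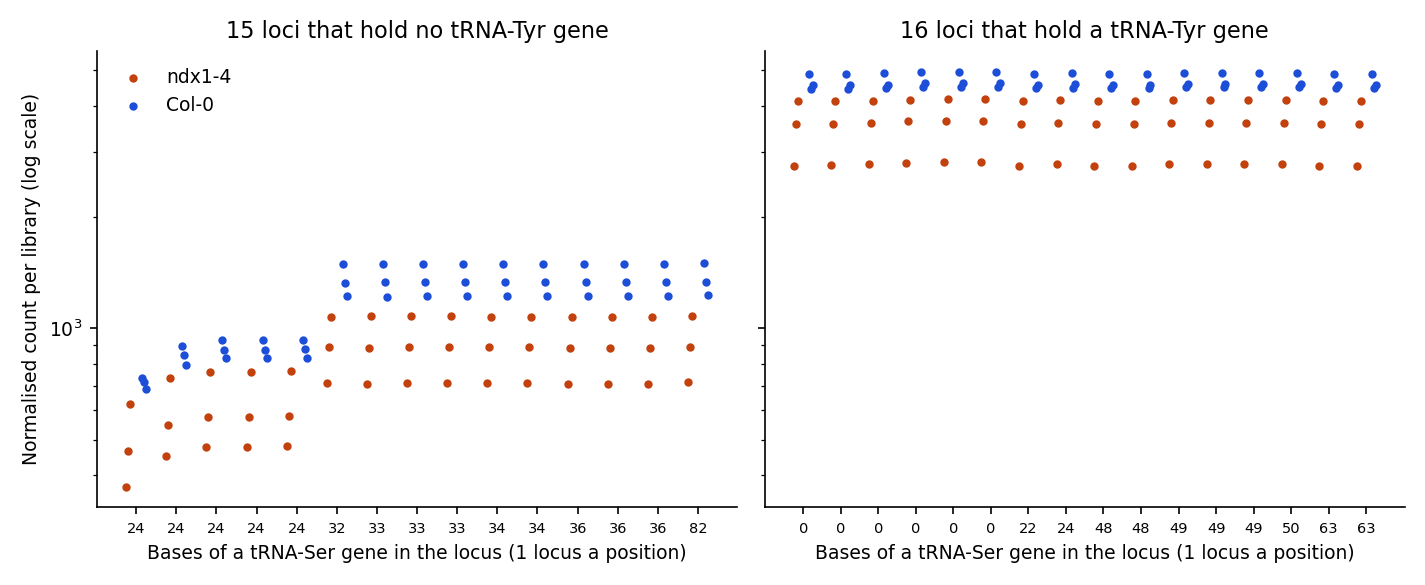
Normalised count in each ndx1-4 and Col-0 library (y axis, log scale) of the 31 tRNA gene loci of clusters 6 and 7, each at 1 position of the x axis, which is labelled with the bases of a tRNA-Ser gene that the locus holds. The 16 loci with a tRNA-Tyr gene share 1 level, the 15 others lie lower, and in each locus the ndx1-4 libraries lie below the Col-0 libraries.

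Besides its tRNA gene loci, cluster 6 held 75 loci that overlap no annotated gene, 8 of them higher and 67 lower, beside 439 higher and 725 lower such loci over the list. Of the 14 on exons of protein-coding genes 7 were higher and 7 lower, and of its 10 on pseudogenes 3 were higher and 7 lower. Over the list the counts were 129 higher and 53 lower on exons and 24 higher and 37 lower on pseudogenes. The highest fold change of the 286 loci was at chr2:2974305-2974658 (354 bp), on the pseudogene AT2G07160 in the pericentromeric region. It had 216, 190 and 192 normalised counts in ndx1-4 replicates 1 to 3, against 4.9, 11.0 and 13.2 in Col-0, which is 20.1-fold higher (log2 fold change 4.33, SE 0.24, edgeR adjusted p = 3.17e-06). The Col-0 libraries held 4, 9 and 12 raw counts here. Next was chr1:9829376-9829518 (143 bp), on an exon of AT1G28135, a gene for an uncharacterised protein. It had 555, 451 and 467 normalised counts in ndx1-4, against 35.6, 26.9 and 40.6 in Col-0 (14.2-fold higher, log2 fold change 3.83, SE 0.16, edgeR adjusted p = 6.66e-07), and it has no near-identical copy. At the other higher loci of cluster 6 the log2 fold change was 0.29 to 0.92. The highest of these is a pair of identical loci of 454 bp at chr3:22524301-22524754 and chr3:22585481-22585934, on exons of AT3G60950 and AT3G61030, the second annotated as a C2 calcium and lipid-binding protein. Their counts were equal in every library, with 285 ± 14.2 in ndx1-4 and 151 ± 10.9 in Col-0 (SD, n = 3 each).

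The lowest fold change of the 286 loci was at chr5:17145865-17146090 (226 bp), which lies between genes, 1193 bp from BKI1, an inhibitor of the brassinosteroid receptor kinase. It had 127, 103 and 92.5 normalised counts in ndx1-4, against 283, 209 and 243 in Col-0 (2.27-fold lower, log2 fold change -1.19, SE 0.16, edgeR adjusted p = 0.000369). The locus of 419 bp at chr1:17203503-17203921, on the pseudogene AT1G46120, had 1152 ± 122 in ndx1-4 and 2315 ± 220 in Col-0, a log2 fold change of -1.01. It shares near-identical sequence with the cluster 7 locus at chr1:24720840-24721644, which fell too. The locus chr4:6560375-6561615 (1241 bp), on AT4G10613, a gene related to reverse transcriptases, had 210, 313 and 226 in ndx1-4, against 430, 529 and 392 in Col-0 (log2 fold change -0.84). The longest locus of cluster 6, of 1969 bp on exons of AT5G36228 near the centromere of chromosome 5, had a small spread in both genotypes, 276, 287 and 275 normalised counts in ndx1-4 against 456, 467 and 460 in Col-0 (log2 fold change -0.72, SE 0.07).

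**Figure D5:**
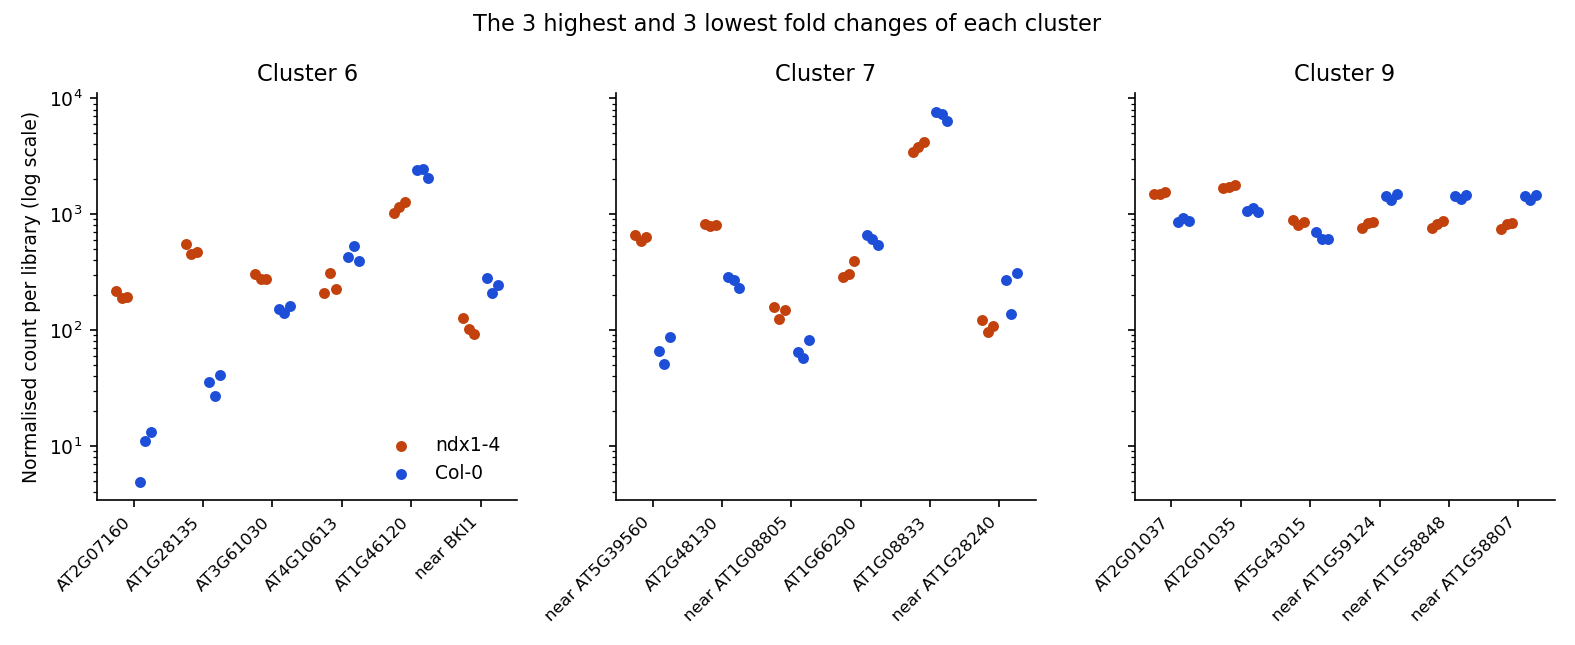
Normalised count in each ndx1-4 and Col-0 library (y axis, log scale) of the 3 loci with the highest and the 3 with the lowest log2 fold change of each cluster among loci averaging 50 or more normalised counts, named by the gene they overlap or the nearest gene. In AT2G07160, AT1G28135 and the locus near AT5G39560 the ndx1-4 libraries lie far above the Col-0 libraries, and the cluster 9 loci differ by 1.33-fold to 1.77-fold.

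In cluster 7 the highest fold change was at chr5:15841022-15841506 (485 bp), 186 bp from AT5G39560, a gene of the kelch repeat family. It had 658, 587 and 634 normalised counts in ndx1-4 replicates 1 to 3, against 66.2, 51.3 and 87.7 in Col-0 (9.08-fold higher, log2 fold change 3.18, SE 0.16, edgeR adjusted p = 1.76e-06). This locus holds the 256 bases that it shares with the AT2G07160 locus of cluster 6, the only near-identical copy of either, so reads from the shared stretch may be counted at both. Next among loci averaging 50 or more normalised counts was chr2:19683219-19683913 (695 bp), on AT2G48130, a gene of the lipid-transfer protein superfamily. It had 817, 797 and 812 in ndx1-4, against 288, 269 and 230 in Col-0 (3.09-fold higher, log2 fold change 1.63, SE 0.09, edgeR adjusted p = 3.21e-06). The third was chr1:550346-550526 (181 bp), with 157, 125 and 148 in ndx1-4, against 65.0, 57.4 and 81.2 in Col-0 (log2 fold change 1.07, SE 0.17). It is 1 of 5 cluster 7 loci of a family on chromosome 1, all higher, with log2 fold changes of 0.43 to 1.07. The family members nearest to a known gene of seed development lie 356 and 642 bp from MEDEA (MEA), a Polycomb gene that is imprinted in the endosperm. MEA is on none of the gene lists used below and was picked for mention after the loci were seen. No link to it was tested. A further locus, chr2:9820953-9821041 (89 bp), had a log2 fold change of 2.32 but a mean of only 40.6 normalised counts, with 89.5, 49.1 and 63.8 in ndx1-4 against 13.5, 23.2 and 4.39 in Col-0, and it was chosen for mention after its values were seen.

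Among the lower loci of cluster 7, the locus chr1:9867206-9867517 (312 bp), between genes, had 122, 96.1 and 108 normalised counts in ndx1-4, against 269, 138 and 308 in Col-0 (log2 fold change -1.14, SE 0.27, edgeR adjusted p = 0.00437), with a wide spread in Col-0. Close together on chromosome 1 lay chr1:24720840-24721644 (805 bp), on the noncoding RNA genes AT1G08833 and AT1G09805, and chr1:24714583-24714895 (313 bp), on an exon of AT1G66290, an F-box family gene. The first had 3424, 3806 and 4230 in ndx1-4, against 7623, 7392 and 6420 in Col-0 (log2 fold change -0.90, SE 0.10, edgeR adjusted p = 0.000169), and the second had 329 ± 58.1 in ndx1-4 and 604 ± 55.2 in Col-0 (SD, n = 3 each, log2 fold change -0.88). The first is also an inverted repeat, with arms of 239 bp at 83.5% identity. Of the 18 cluster 7 loci on exons or introns of protein-coding genes, 15 were higher in ndx1-4, beside 129 higher and 53 lower on exons and 17 higher and 3 lower on introns over the list.

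Most abundant in cluster 7 was the locus chr3:10008230-10008836 (607 bp), 56 bp from AT3G27140, with 11725 ± 521 normalised counts in ndx1-4 and 10028 ± 581 in Col-0 (SD, n = 3 each), on the log2 scale 0.23 (SE 0.07, edgeR adjusted p = 0.0139, and 0.0544 without Col-0 replicate 3). This is the smallest value among the higher loci of the list and lies at the edge of the empty band, so it follows from where the scale was centred. At the upper edge of the band the log2 fold change of this locus was 6.9e-05 (edgeR adjusted p = 0.999), and on the scale of column totals it was 0.58. The longest locus, chr5:20313004-20314929 (1926 bp, 112 bp from EMB1441), had 6436, 8000 and 9954 in ndx1-4, against 12179, 11922 and 9541 in Col-0. Here ndx1-4 replicate 3 lay above Col-0 replicate 3. Its log2 fold change was -0.46 (edgeR SE 0.16, adjusted p = 0.0196), and the call was lost without ndx1-4 replicate 2 (adjusted p = 0.0547), Col-0 replicate 1 (0.0705) or Col-0 replicate 2 (0.0651). The shortest locus, of 71 bp in the pericentromeric region of chromosome 1, had 154, 155 and 181 in ndx1-4, against 253, 208 and 220 in Col-0 (log2 fold change -0.48, SE 0.12).

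In cluster 9, 65 of its 71 loci were lower, and 50 of the 71, 49 of them lower, overlapped no annotated gene. The share without a gene was 70.4% in cluster 9 and 71.4% over the list, where 725 of the 1166 such loci were lower. Its lowest fold changes were those of an array of 4 loci of 2001 to 2144 bp at chr1:21777760-21827729, outside the pericentromeric bins. Each lies 173 to 316 bp from a disease resistance gene of the NBS-LRR kind, a group of immune receptors (AT1G58807, AT1G58848, AT1G59124 and AT1G59218). The first had 749, 818 and 845 normalised counts in ndx1-4 replicates 1 to 3, against 1443, 1333 and 1477 in Col-0 (log2 fold change -0.82, SE 0.07, edgeR adjusted p = 5.16e-05), and the others had -0.80 each. The 4 belong to a single near-identical family, so they are not independent. Of the same family, 2 cluster 7 loci on chromosomes 3 and 5 were lower too, with log2 fold changes of -0.61 and -0.37.

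The most abundant of the 286 loci, and the longest of the list, was the cluster 9 locus chr3:1962587-1970720, of 8134 bp. It overlaps the noncoding RNA genes AT3G00210, AT3G00220, AT3G01835 and AT3G01845 and the genes AT3G06435 and AT3G06436, and it is an inverted repeat with arms of 3249 bp at 98.9% identity. It had 93553, 88379 and 89006 normalised counts in ndx1-4, against 137159, 122232 and 143746 in Col-0, with no overlap (1.49-fold lower, log2 fold change -0.57, SE 0.10, edgeR adjusted p = 0.0011, and 0.0634 on the scale of column totals). Inverted repeats with arms of at least 50 bp at 80% identity were found in 4 of the 286 loci and in 9 of the 1633 listed loci. The others of the 4 were the cluster 7 locus described above, a cluster 6 locus of 510 bp on the noncoding RNA gene AT3G07855 (arms of 201 bp at 85.9% identity, 3054 ± 208 in ndx1-4 and 4194 ± 533 in Col-0, log2 fold change -0.46) and a cluster 9 locus of 4309 bp on AT3G44570 and AT3G44580 (arms of 1119 bp at 90.9% identity, 7083 ± 745 in ndx1-4 and 8646 ± 383 in Col-0, log2 fold change -0.29). All 4 were lower in ndx1-4, beside 73.4% of the 286 loci and 60.8% of the list. The second most abundant locus of cluster 9, chr2:2602246-2607358 (5113 bp), had 11058 ± 785 in ndx1-4 and 13072 ± 569 in Col-0 (SD, n = 3 each). The call at -0.24 (log2 fold change, SE 0.08, edgeR adjusted p = 0.0136) was lost without Col-0 replicate 1 (adjusted p = 0.0649), and on the scale of column totals the log2 fold change was 0.12.

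The 6 higher loci of cluster 9 fell into 3 families. The highest were chr2:58029-59923 (1895 bp, pseudogene AT2G01037), with 1480, 1495 and 1566 normalised counts in ndx1-4 against 853, 931 and 864 in Col-0 (log2 fold change 0.78, SE 0.06, edgeR adjusted p = 2.55e-05), and chr2:48884-50595 (1712 bp, AT2G01035), with 1690, 1712 and 1768 in ndx1-4 against 1068, 1130 and 1040 in Col-0 (log2 fold change 0.67). Both belong to the family of 9 loci. A family of 3 near-identical pseudogene loci of 2005 to 2357 bp on chromosomes 1 and 5 had log2 fold changes of 0.41 each, among them chr5:17253091-17255209 with 848 ± 48.6 in ndx1-4 and 638 ± 51.4 in Col-0. The last was the shortest locus of the cluster, of 249 bp at chr5:11796861-11797109 in the pericentromeric region, with 570, 576 and 530 in ndx1-4 against 416, 490 and 432 in Col-0 (log2 fold change 0.33, SE 0.08, edgeR adjusted p = 0.00583).

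Near-identical families spanned the clusters. The 286 loci fell into 138 families, of which 24 had 2 or more members among them and together held 172 loci. No such family had members of both directions, but near-identical loci can share reads, so their directions are not independent. The largest, with 43 of the 286 loci, held 13 loci of cluster 6, 10 of cluster 7 and 20 of cluster 9, of 71 to 4827 bp. All 43 lie in pericentromeric bins, 39 on chromosome 1 and 4 on chromosome 4, and all were lower, with log2 fold changes of -0.51 to -0.31. Of its loci, 36 hold a full-length match to the 71 bases printed for cluster 7, 10 of them in cluster 6 (at up to 95.8% identity) and 17 in cluster 9 (at up to 93.0%). The family of 489 listed loci held 12 loci of cluster 6 and 20 of cluster 9, on chromosomes 3, 4 and 5, with log2 fold changes of -0.66 to -0.24. In the family of 9 higher loci, 6 belong to cluster 7, 2 to cluster 9 and 1 to cluster 6, and 4 lie in pericentromeric bins. Its log2 fold changes were 0.67 to 0.93, with mean normalised counts of 1150 to 1723 in ndx1-4 and 619 to 1079 in Col-0, and each member aligned to the chromosome 4 locus at 95.8% to 99.0% identity. That locus, chr4:11109684-11110280 (597 bp), had 1176, 1135 and 1222 in ndx1-4, against 611, 672 and 574 in Col-0 (log2 fold change 0.93, SE 0.07, edgeR adjusted p = 3.32e-05). A family of 4 loci on 4 chromosomes, 3 of cluster 6 and 1 of cluster 7, was higher by log2 fold changes of 0.29 to 0.37.

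Of 52 genes listed for NDX and its named partners, the sRNA pathway and flowering, 47 were matched to the annotation and none overlapped a locus of the 3 clusters. The only match within 2 kb was AP2, a floral homeotic gene, at 447 bp from the cluster 7 locus chr4:17403916-17404514 (599 bp), which overlaps the neighbouring gene AT4G36925. That locus had 558, 530 and 472 normalised counts in ndx1-4, against 401, 412 and 423 in Col-0 (log2 fold change 0.34, SE 0.08, edgeR adjusted p = 0.00492). The flowering gene SOC1 lay 3427 bp from a cluster 7 locus, and DCL3, which cuts the sRNAs of RNA-directed DNA methylation, 17400 bp from a cluster 6 locus.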

How the data were processed

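sRNA libraries of inflorescences were sequenced from 3 ndx1-4 and 3 Col-0 samples. According to the labels and methods, the authors trimmed adapters (cutadapt), kept reads by size, aligned them to a published set of sRNA loci with sRNAnalyzer and tested the loci with DESeq2, and the deposited table holds whole-number read counts of the loci past an adjusted p of 0.05, with no normalization of these columns. Its columns of log2 fold change, adjusted p and direction hold the authors' own comparison and were not used. The size range is given as 2 different ranges in the sources, and column totals of a selected list are not library depths.

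Members, gene lists and tests were chosen with earlier results of these data known. Size factors were set within a genotype by the median of ratios over the 999 loci whose count reached 200 throughout the 6 libraries. Between genotypes the scale was centred in the widest empty interval of log2 ratios (width 0.451), since the list lacks loci without a difference. Size factors were 1.26, 1.38 and 0.94 in ndx1-4 and 0.816, 0.818 and 0.912 in Col-0. Loci were tested with edgeR 4.0.16 (R 4.3.3, limma 3.58.1) in a fit over the list, 1626 loci after the filter on low counts, with adjustment over all of them. Library values used log2 of the normalised count plus 0.5 and exact two-sided permutation tests (SciPy 1.17.1, Python 3.11.15). The authors describe the pools as biological replicates, and the labels do not say whether their plants were grown separately. The p-values set a difference against the spread between these pools. They also rest on a list selected by a test on the same libraries.

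Near-identical copies (at least 50 bp at 95% identity) and inverted repeats (arms of at least 50 bp at 80%) were found with BLAST+ 2.17.0 in the RefSeq assembly TAIR10.1, whose annotation gave genes. Pericentromeric bins were 42 of 240. Transposon annotation was not used here. Named loci of each cluster were the 3 highest and 3 lowest log2 fold changes among loci that averaged 50 or more normalised counts, the 2 most abundant, the longest, the shortest and any on a listed gene. Loci named as parts of families, runs, tRNA arrays or inverted repeats were chosen after their values were seen. Scripts were tested on simulated data. Alternatives were other scales, filters, DESeq2 1.42.0, a replicate block, each library left out, and subsets of loci.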

Additional observations from a re-analysis of the deposited data

How the results depend on the processing

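The scale between the genotypes moved the medians and the calls. At the lower edge of the empty interval the medians of clusters 6, 7 and 9 were -0.20, 0.51 and -0.11, with 31, 6 and 14 loci called lower. At the upper edge they were -0.66, 0.056 and -0.57, with 7, 25 and 2 loci called higher. TMM gave -0.18, 0.53 and -0.093 with 26, 5 and 14 lower, median-of-ratios gave -0.17, 0.54 and -0.082 with 14, 5 and 14 lower, and column totals gave -0.070, 0.64 and 0.019 with 5, 3 and 5 lower, so cluster 9 changed sign there. Differences between clusters do not depend on the scale.

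Among loci with no near-identical copy, cluster 6 had 7 higher and 32 lower, cluster 7 had 18 higher and 8 lower with a median of 0.33, and cluster 9 had 0 higher and 12 lower. The differences in median were then 0.68 for cluster 7 minus 9, and -0.93, -0.16 and -0.84 for clusters 6, 7 and 9 minus all other listed loci. With 1 locus per near-identical family, chosen after seeing the data, cluster 6 had 48 lower, cluster 7 had 13 lower with a median of 0.32, and cluster 9 had 3 higher and 16 lower. The differences were 0.65 for cluster 7 minus 9, and -0.89, -0.16 and -0.80 for clusters 6, 7 and 9 minus the others. Among loci of 500 bp or more they were 0.080 for cluster 7 minus 6, 0.040 for cluster 7 minus 9, and 0.055, 0.13 and 0.094 for clusters 6, 7 and 9 minus the others. With 1 locus per set of identical counts, cluster 7 minus the others was 0.57. The share of cluster 9 in the listed counts differed by 0.032 percentage points without its most abundant locus, also a setting added later. The cause of these changes was not tested, beyond the smaller number of loci.

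Leaving out 1 library at a time gave medians of -0.47 to -0.39, 0.28 to 0.29 and -0.40 to -0.30 in clusters 6, 7 and 9, and 97 to 112, 27 to 33 and 63 to 65 lower loci, with the 97 of cluster 6 without Col-0 replicate 1. Differences in median ranged over 0.68 to 0.76 (cluster 7 minus 6), 0.040 to 0.13 (9 minus 6), 0.60 to 0.68 (7 minus 9), and -0.16 to -0.090, 0.55 to 0.62 and -0.088 to -0.0045 (clusters 6, 7 and 9 minus the others). Shares of listed counts differed by -0.22 to 0.15, 0.77 to 0.997 and -0.82 to -0.36 percentage points, and for cluster 6 the sign turned without ndx1-4 replicate 1 (0.15).

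Equal replicate numbers did not pair the samples (correlations of -0.018, 0.077 and -0.16 over 1508 loci). With the replicate block the medians were -0.43, 0.28 and -0.34 and 51 loci of cluster 7 were called higher, where 52 were without it. DESeq2 on the same scale, an adjusted p under 0.01 and the filters on low counts kept these counts within 1.5 times. Limits are the 3 libraries a genotype, 1 allele, a list selected on these libraries and reads shared among copies.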
